A study of Mus musculus with 55 samples.

Results

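Pre-mRNA levels of mouse embryonic stem (ES) cells in early G1 were compared with those of the same cells growing without synchrony. The comparison takes 7 of the 19 CCNA-GFP libraries, out of 55 libraries in the series: 3 of asynchronous cells (replicates 1, 2 and 3), 2 of cells 90 min after release from a mitotic block (replicates 1 and 3) and 2 of cells 120 min after release (replicates 1 and 2). The libraries were taken by stage and not by a measured value, although earlier results of these data were known when the comparison was chosen. All 7 come from E14Tg2a ES cells of 129/Ola origin that carry CCNA-GFP, a cyclin A reporter of cell cycle position, and were grown in serum with LIF. The released cells had been held for 4 h with RO-3306, a CDK1 inhibitor, at 10 µM and then for 4 h with nocodazole, which depolymerises microtubules, at 50 ng/ml. They were then shaken off and replated without gelatine. The asynchronous cells had neither drug and no shake-off, so that stage, drug history and replating differ together between the groups and cannot be told apart. Replicates 1, 2 and 3 were described as independent, with an asynchronous library in each.

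Stretches of a gene that are later spliced out are present only in pre-mRNA, so pre-mRNA follows transcription more closely than the stable mRNA pool does. A cell leaving mitosis restarts transcription on chromosomes that had been almost silent, and in ES cells G1 is short and soon followed by S phase. In textbook accounts of the cycle, the genes for replication factors are driven by E2F proteins in G1 and early S, whereas the genes for the mitotic machinery are driven in G2 and M through the CCAAT box and an element named CHR. The p53 protein activates a set of genes that halt the cycle or start apoptosis after stress such as DNA damage.

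The sequence before the start of 6 cell cycle genes is printed here to show the words that are counted further on over whole gene lists. Each is the 150 bases before the RefSeq start of the gene, written 5′ to 3′ on the gene's own strand, from GRCm38.p6. In all 6, capitals mark each match to any of 3 kinds of word. An E2F-like word is TTTCCCGC, TTTCGCGC, TTTGCCGC or TTTGGCGC on either strand. The others are the CHR word TTTGAA and the word CCAAT on either strand (TTCAAA and ATTGG when read on the other). The first pair comes from genes that rose in early G1, and each window holds an E2F-like word and CCAAT. The Orc1 window lies at chr4:108579304-108579453 on the plus strand and the Cdc25a window at chr9:109875429-109875578 on the plus strand.
Orc1: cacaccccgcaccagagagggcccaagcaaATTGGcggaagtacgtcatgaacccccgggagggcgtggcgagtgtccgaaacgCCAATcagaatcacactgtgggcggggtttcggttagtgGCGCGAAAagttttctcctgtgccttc
Cdc25a: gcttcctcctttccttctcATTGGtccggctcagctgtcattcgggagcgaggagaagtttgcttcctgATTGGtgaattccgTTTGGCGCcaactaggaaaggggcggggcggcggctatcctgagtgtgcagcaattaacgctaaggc

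The next 4 come from genes of mitotic entry and chromosome structure that fell. All hold CCAAT, those of Mki67, Cdk1 and Top2a hold the CHR word, and that of Cdk1 holds an E2F-like word as well. The windows lie at chr7:122159285-122159434 on the plus strand (Plk1), chr7:135716380-135716529 on the minus strand (Mki67), chr10:69352913-69353062 on the minus strand (Cdk1) and chr11:99024190-99024339 on the minus strand (Top2a).
Plk1: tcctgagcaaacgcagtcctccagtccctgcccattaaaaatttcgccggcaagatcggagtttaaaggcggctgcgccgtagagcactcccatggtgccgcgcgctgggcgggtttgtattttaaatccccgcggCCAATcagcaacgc
Mki67: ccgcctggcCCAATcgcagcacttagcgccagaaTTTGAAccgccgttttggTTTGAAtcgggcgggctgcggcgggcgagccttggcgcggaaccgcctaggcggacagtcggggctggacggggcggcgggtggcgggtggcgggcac
Cdk1: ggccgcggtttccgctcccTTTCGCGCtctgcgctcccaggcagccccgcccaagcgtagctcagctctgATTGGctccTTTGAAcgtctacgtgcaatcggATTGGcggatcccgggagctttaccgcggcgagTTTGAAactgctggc
Top2a: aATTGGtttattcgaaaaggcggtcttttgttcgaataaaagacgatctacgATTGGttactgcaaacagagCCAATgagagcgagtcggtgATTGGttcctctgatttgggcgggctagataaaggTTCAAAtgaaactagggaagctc

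The ES identity of the libraries was checked first. Of 10 ES markers, 9 were listed, with a summed level of 70.9 to 133 TPM in asynchronous and 96.4 to 116 TPM in early G1 libraries. None of 10 fibroblast markers was listed. Of 10 markers each, 1 of primitive endoderm, 5 of trophectoderm, 2 of mesoderm and 3 of neuroectoderm were listed. Their sums reached at most 3.41, 8.04, 2.07 and 4.40 TPM in asynchronous libraries and 2.79, 9.51, 2.22 and 8.41 TPM in early G1. The neuroectoderm sum did not overlap between groups (2.06 to 4.40 against 4.99 to 8.41 TPM), and its part in the results was not tested.

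The listed pre-mRNA values summed to more in each early G1 library than in any asynchronous one. They were deposited as TPM, by definition a gene's share of all transcripts in its library, scaled for length. Because of the factor described below, they may not be plain shares. Sums run over the 9911 listed genes. The sum was 20501, 20541 and 28934 TPM in the asynchronous libraries of replicates 1, 2 and 3. It was 34677 and 41016 TPM at 90 min (replicates 1 and 3) and 31751 and 31694 TPM at 120 min (replicates 1 and 2). All 4 early G1 libraries were thus above all 3 asynchronous ones, with a mean of 34784 ± 4382 TPM (SD, n = 4) against 23325 ± 4857 TPM (SD, n = 3). The exact two-sided permutation test over libraries gave p = 0.0571, which is the smallest p that 4 against 3 allows. That test ignores the replicate, and the 90 and 120 min libraries of replicate 1 count in it as separate samples. Within replicates the ratio of sums was 1.69 and 1.42 at 90 min and 1.55 and 1.54 at 120 min. Each deposited library is a whole multiple of its own step, equal to 0.01 TPM times a factor of 2.30 to 2.91 in asynchronous and 2.73 to 3.67 in early G1 libraries, and no source used here names that factor. Divided by it, the sums overlapped, at 7068, 8916 and 9955 in asynchronous cells, 9620 and 15010 at 90 min and 8652 and 10132 at 120 min, but within each replicate every early G1 sum was still the higher one. Therefore each gene was tested on 2 scales, on the deposited values and after all libraries had been scaled to the same total. In bulk samples, fewer cells making an RNA and less RNA per cell cannot be told apart.

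**Figure D1:**
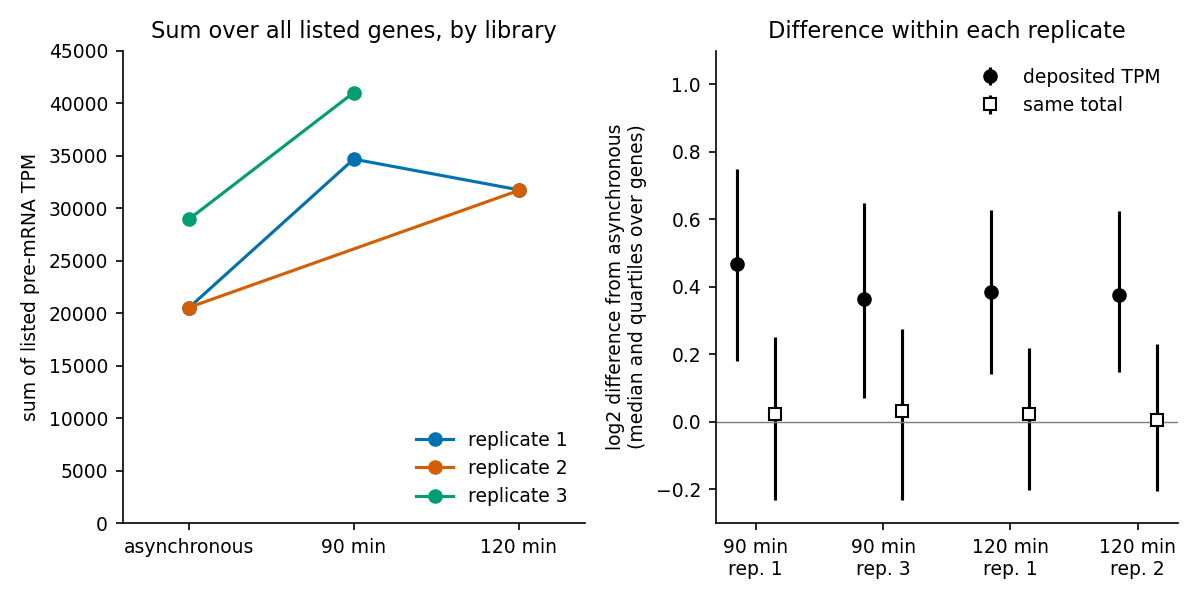
Left, sum of the listed pre-mRNA TPM in each of the 7 libraries, with lines joining libraries of the same replicate. Right, the log2 difference of each early G1 library from the asynchronous library of its replicate, as median and quartiles over the 9911 genes, for deposited values (filled) and after scaling to the same total (open): the median lies at 0.36 to 0.47 on the first scale and at 0.01 to 0.03 on the second.

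On the deposited scale the shift was broad. With limma on log2(TPM + 1) and the replicate as a block, 6966 genes (70.3%) were higher and 792 (7.99%) were lower in early G1 at an adjusted p under 0.05, and the median difference was 0.38. After scaling to the same total the median was 0.02, with 3291 genes (33.2%) higher and 2961 (29.9%) lower. Both scales called the same direction for 3291 higher (33.2%) and 790 lower genes (7.97%). Below, a gene is said to have risen or fallen where both scales called it that way, and a log2 difference is the deposited one unless the same total is named. Counts of risen and fallen list members are to be read against these shares of all genes, 33.2% and 7.97%. Differences on this scale understate the change of genes near or under 1 TPM. Genes were listed above 0.5 TPM in asynchronous cells or after mitosis, so a gene whose asynchronous mean is at or under 0.5 TPM is in the table through its later level. Among the genes named here this applies to Fam89b, Fosl1, Arc, Anks1b, Camta1, Zfhx3 and Eno2, for which a rise or a higher level carries less weight. In 4921 genes (49.7%) all 4 early G1 libraries exceeded all 3 asynchronous libraries on the deposited values, and in 340 (3.43%) all 4 were below.

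**Figure D2:**
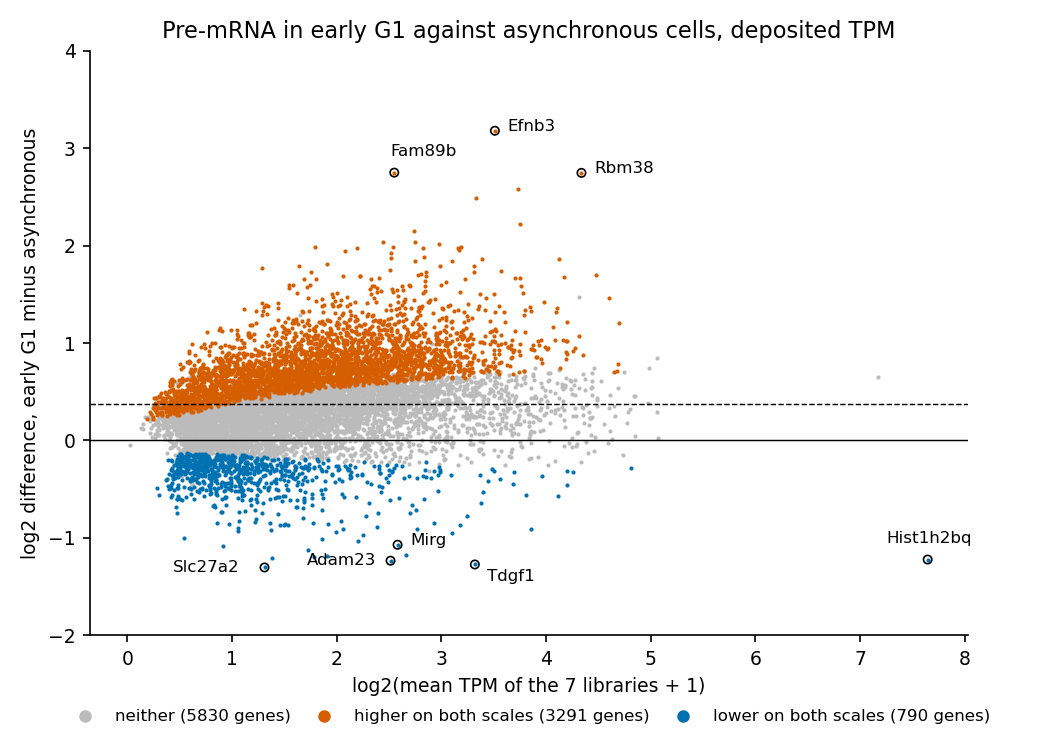
The log2 difference on the deposited scale (early G1 minus asynchronous, vertical axis) against the mean level of the 7 libraries (log2 axis) for each gene, coloured by the call on both scales, with the median of all genes (0.38) dashed. The largest rises stand near 3 and the largest falls near -1.3.

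With a pseudocount of 1 the gene that rose most was Efnb3 (with 0.1 it was behind Fam89b, at 3.99 against 4.54), which encodes ephrin-B3, a membrane ligand of Eph receptors (chr11:69554092-69560205, minus strand, GRCm38). It read 0.754, 0.806 and 1.60 TPM in asynchronous cells, 17.4 and 19.8 TPM at 90 min and 16.2 and 16.3 TPM at 120 min. The means were 17.4 ± 1.64 TPM (SD, n = 4) and 1.05 ± 0.473 TPM (SD, n = 3), and the 2 groups were far apart. The log2 difference was 3.18 ± 0.13 (SE; adjusted p = 8.6e-13) and, with the same total, 2.70. Its upstream neighbour on the same strand, Wrap53, a telomerase and Cajal body factor, ends 1553 bases before it. Wrap53, singled out after its values were seen, read 2.47, 2.63 and 4.19 TPM in asynchronous cells, 13.8 and 21.2 TPM at 90 min and 11.2 and 10.8 TPM at 120 min. It rose by a log2 difference of 1.86, without overlap between groups.

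Rbm38, an RNA-binding protein gene that p53 is known to activate, held a higher level throughout. It read 3.19, 2.81 and 5.35 TPM in asynchronous cells, 32.5 and 34.9 TPM at 90 min and 29.3 and 26.6 TPM at 120 min (log2 difference 2.75 ± 0.14, same total 2.21). Dffb, the nuclease that cuts DNA in apoptosis, stood at 0.87, 1.15 and 1.69 TPM and then at 8.83, 10.7, 8.07 and 8.51 TPM, a rise of 2.15. In neither gene did the groups overlap. Gzmm, a granzyme protease, rose by 2.03 and 1700001P01Rik by 2.04, whereas 1700007K13Rik rose by 2.58. Gzmm starts 622 bases past Cdc34 and 1700001P01Rik 1609 bases past Rpl23, each on the same strand. Any part of these neighbours in the rises was not tested. For 5 of the 10 largest rises, Rbm38 among them, another annotated gene covers some of the same bases, and the share of reads that belongs to each was not tested. Fam89b (2.75) overlaps Sssca1, Tmppe (2.49) lies in Glb1 and Neurod1 (2.02) in Cerkl, each on the same strand. Fbxw9 (2.23) overlaps A230103J11Rik and Rbm38 overlaps Gm20490 and Gm14453 on the other strand, and whether the counting used strand is not given in the sources used here.

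The 10 largest falls were smaller. Mirg, a non-coding RNA described further on, is one of them (-1.07), with overlap between the groups. Slc27a2, a very long chain acyl-CoA synthetase and fatty acid transporter, read 2.35, 3.13 and 2.85 TPM in asynchronous cells, 0.397 and 0.847 TPM at 90 min and 0.257 and 0.532 TPM at 120 min. Its groups did not overlap, and the log2 difference was -1.30 ± 0.08 (adjusted p = 2.1e-10). Tdgf1 (Cripto), the co-receptor of Nodal, read 14.4, 9.95 and 16.9 TPM, then 2.81 and 9.04 TPM at 90 min and 2.42 and 7.35 TPM at 120 min. It fell in every replicate without overlap (log2 difference -1.27 ± 0.22), but replicate 1 fell furthest. The difference was -0.61 without replicate 1 and -1.72 without replicate 2. Lefty1, a secreted inhibitor of Nodal, read 2.76, 4.42 and 1.51 TPM and then 0.649, 0.437, 0.404 and 1.06 TPM, a log2 difference of -1.21. Fgf17, a growth factor (-1.12), Adam23, a membrane protein of the ADAM family (-1.23), and Uri1, a prefoldin-like chaperone (-1.17), also fell with no overlap. Notum, the enzyme that inactivates Wnt proteins by removing their lipid, fell by 1.18 on the log2 scale, with overlap between 2.03 TPM in asynchronous replicate 2 and 2.10 TPM at 90 min in replicate 3. Gtf3c2, a subunit of the RNA polymerase III factor TFIIIC, had a difference of -1.20 here. Among these falls Gtf3c2 overlaps Gm29609 on the same strand, and Slc27a2 overlaps Gm26697 and Notum overlaps Myadml2os and Notumos on the other.

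**Figure D3:**
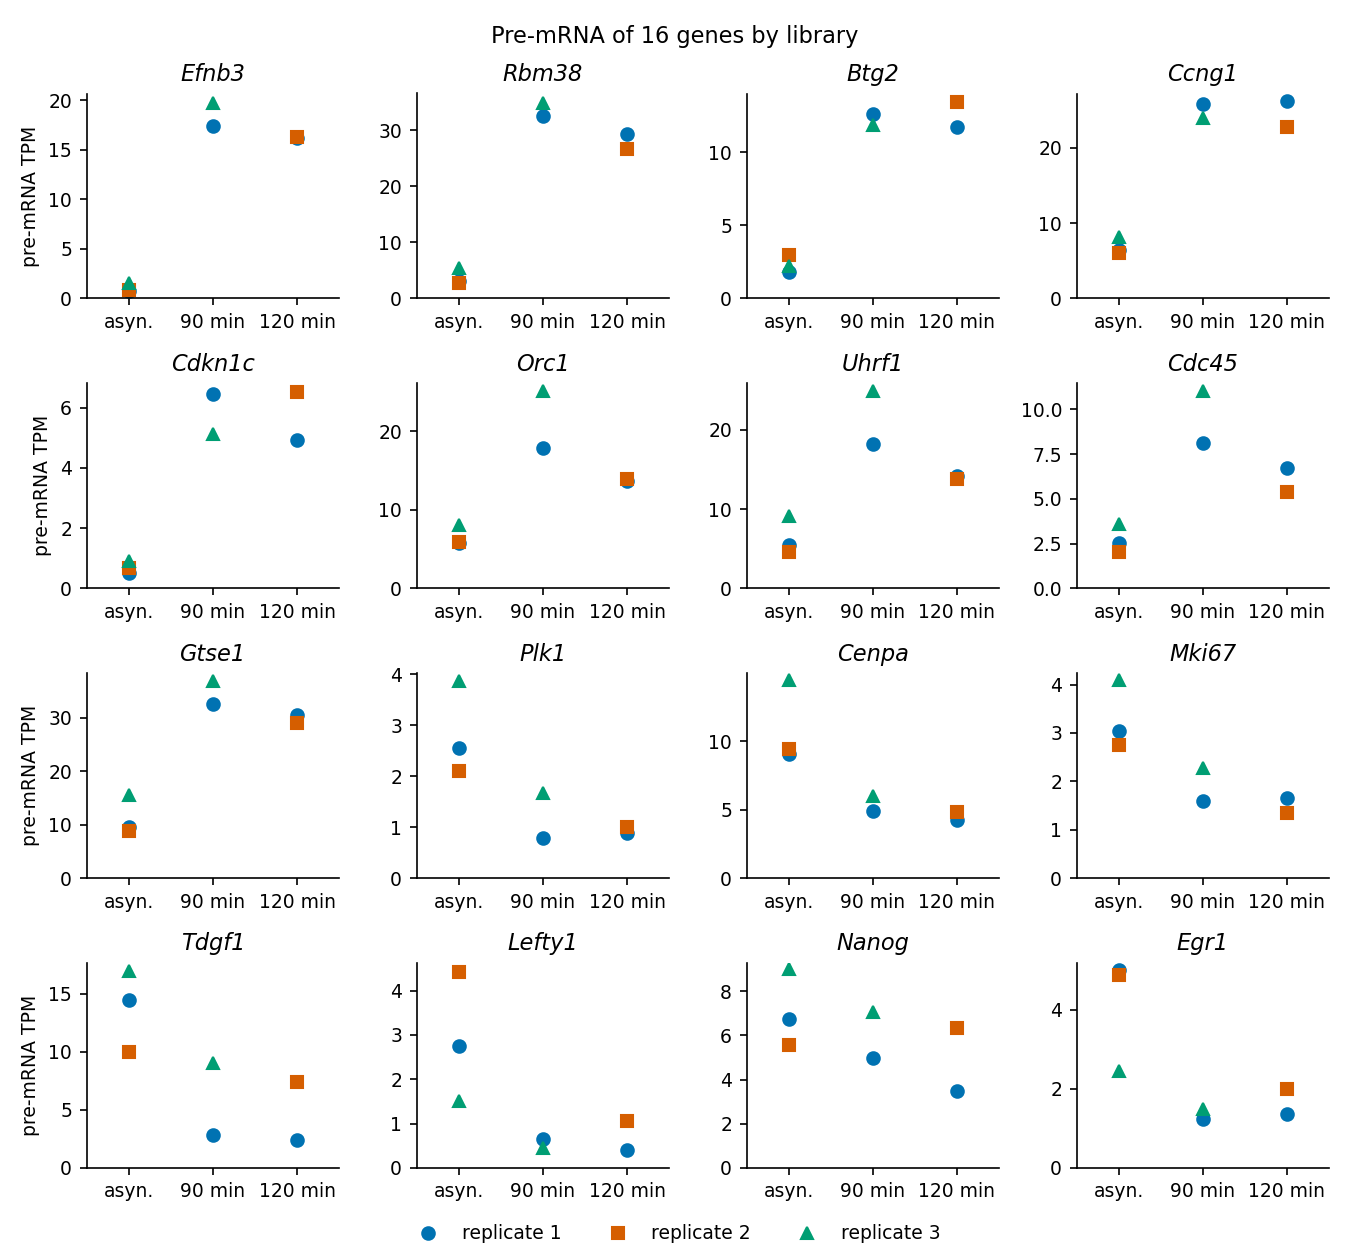
Pre-mRNA TPM of 16 genes in each of the 7 libraries (asynchronous, 90 min, 120 min), with 1 panel per gene, symbols for replicates and all axes from 0. The early G1 points lie above every asynchronous point for Efnb3 to Gtse1 in reading order and below for Plk1, Cenpa, Mki67, Tdgf1, Lefty1 and Egr1, whereas those of Nanog overlap.

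Most of the p53 target list rose. Of 27 listed members, 26 were higher on the deposited scale (70.3% of all genes) and 19 rose on both (33.2% of all genes), with none lower on the deposited scale. The median log2 difference was 1.01 against 0.38 over all genes, and 0.49 against 0.02 with the same total. Btg2, an antiproliferative gene, read 1.80, 3.00 and 2.24 TPM in asynchronous cells and 12.7, 11.9, 11.7 and 13.5 TPM in early G1 (90 min replicates 1 and 3, then 120 min replicates 1 and 2). It rose by 1.98 ± 0.18. Ccng1, which encodes cyclin G1, read 6.41, 6.04 and 8.17 TPM and then 25.8, 24.0, 26.2 and 22.7 TPM, a rise of 1.68. Neither gene overlapped between groups, and the early G1 libraries lay close together. Phlda3, an inhibitor of Akt, rose by 1.79 and Ddit4l, an inhibitor of mTOR signalling, by 1.43. Among the pro-apoptotic targets Bbc3 (Puma) rose by 1.42, Bax by 1.08 and Pmaip1 (Noxa) by 0.92.

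The Mir34a hairpin, the precursor of a microRNA that p53 is known to induce, was looked at after its values were seen. Its mature 5p strand from RefSeq, with the seed (bases 2 to 8) in capitals, lies at chr4:150068473-150068494 on the plus strand.
mmu-miR-34a-5p: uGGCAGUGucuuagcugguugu
The hairpin gene read 8.01, 9.10 and 9.48 TPM in asynchronous cells, 25.0 and 22.5 TPM at 90 min and 30.2 and 27.7 TPM at 120 min, with no overlap. The log2 difference was 1.47 (adjusted p = 0.00021) and, with the same total, 0.92 (adjusted p = 0.058), so that only the deposited scale called it. This value is that of the 0.1 kb hairpin interval, not of the mature microRNA.

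Most of the replication list rose. Of the 56 genes for replication licensing, the fork and nucleotide supply, all listed, 49 were higher on the deposited scale and 33 on both, against 70.3% and 33.2% of all genes. None fell on the deposited scale, while 10 were lower with the same total (29.9% of all genes). The median was 0.65 (all genes 0.38) and 0.19 with the same total (all genes 0.02). Orc1, the large subunit of the origin recognition complex, whose window is printed above, read 5.71, 5.83 and 8.08 TPM in asynchronous cells, 17.8 and 25.1 TPM at 90 min and 13.7 and 13.9 TPM at 120 min. The groups did not overlap, and the rise was 1.29 ± 0.12. Uhrf1, which guides maintenance DNA methylation, rose by 1.33, Fen1, the flap endonuclease, by 1.23, and Cdc45, part of the replicative helicase, by 1.22. The helicase genes Mcm7, Mcm5, Mcm2, Mcm4 and Mcm6 rose by 1.16, 1.13, 1.00, 0.98 and 0.81. The loading factors Cdc6 and Cdt1 rose by 1.08 and 1.04, and the clamp gene Pcna by 0.99.

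Among 26 listed regulators of G1 and the G1/S step, 10 rose and 2 fell, near the shares of all genes (33.2% and 7.97%; median 0.51, same total 0.10). Cdkn1c, which encodes the CDK inhibitor p57, read 0.522, 0.668 and 0.901 TPM and then 6.45, 5.14, 4.92 and 6.51 TPM, a rise of 1.97 without overlap. Cdkn1b (p27) rose by 0.88, Rb1, the retinoblastoma gene, by 0.89, its relative Rbl2 by 0.82 and E2f7, a repressor of the E2F family, by 1.01. Cdk2, the kinase of S phase entry, rose by 0.85. Cdk6 and Rbl1 both fell, with log2 differences of -0.32 and -0.32, and the call of Cdk6 was lost without asynchronous replicate 2 (-0.21). E2f1 was higher only on the deposited scale (0.59, same total 0.13). For Ccne1 (cyclin E1) and Ccnd1 (cyclin D1) the direction turned with the scale, from 0.23 and 0.30 on the deposited values to -0.25 and -0.10 with the same total. Ccnd1 was no longer called without 120 min replicate 2 (0.18), 90 min replicate 3 (0.23) or asynchronous replicate 1 (0.20), and Ccne1 became called without 120 min replicate 1 (0.36) and stood at 0.08 without 120 min replicate 2 and 0.13 without 90 min replicate 3.

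The genes of G2 and mitotic entry split. Of 31 listed, 4 rose and 7 fell (33.2% and 7.97% of all genes), and the median was 0.13, or -0.25 with the same total. Plk1, the kinase that drives mitotic entry, read 2.55, 2.10 and 3.87 TPM in asynchronous cells and 0.793, 1.67, 0.881 and 1.00 TPM in early G1. It fell without overlap, with a log2 difference of -0.86 ± 0.11 (adjusted p = 8.9e-07). Mki67, which coats mitotic chromosomes, fell by 0.66 on the log2 scale without overlap, from 3.05, 2.74 and 4.10 TPM to 1.59, 2.27, 1.65 and 1.35 TPM. Aurka (-0.43), Top2a (-0.35), Cdk1 (-0.30), Ccnb2 (-0.28) and Bora (-0.25), which hold the kinases, cyclin B2, an activator of Plk1 and the topoisomerase of chromosome condensation, fell less. The groups overlapped in Cdk1 and Top2a. The deposited call of Cdk1 was lost without 1 library, that of 120 min replicate 1 (-0.28), 90 min replicate 1 (-0.22), asynchronous replicate 2 (-0.23) or asynchronous replicate 3 (-0.27). That of Bora was lost without either replicate 1 library of early G1 (-0.15 and -0.24), 90 min replicate 3 (-0.26) or asynchronous replicates 2 and 3 in turn (-0.21 and -0.22). Leaving out all libraries of a replicate ended the calls of Aurka (without replicate 1, -0.27), Top2a (without replicate 2, -0.29) and Ccnb2 (without replicate 1 or 3, -0.26 each). Ccnb1, encoding cyclin B1, had a log2 difference of -0.18 (adjusted p = 0.13), -0.30 and called without asynchronous replicate 1, and -0.72 with the same total. On the other side, Gtse1, which binds p53 and microtubules in G2, read 9.49, 8.73 and 15.6 TPM and then 32.6, 37.0, 30.5 and 29.0 TPM, a rise of 1.46. Cdc25a, the phosphatase that activates CDKs at G1/S as well as G2/M, rose by 1.08, Mastl (Greatwall kinase) by 0.77 and Lin54, the subunit of the DREAM complex that binds CHR elements, by 0.71.

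The spindle, kinetochore and cytokinesis genes also split, with 5 of 54 rising and 11 falling (33.2% and 7.97% of all genes; median 0.14, same total -0.26, with 36 lower on that scale against 29.9% of all genes). Cenpa, the histone variant of centromeres, read 9.05, 9.42 and 14.5 TPM in asynchronous cells and 4.94, 5.98, 4.26 and 4.82 TPM in early G1. It fell without overlap, with a log2 difference of -0.95. Tpx2, an activator of Aurora A at the spindle (-0.58), Nusap1, which bundles microtubules (-0.57), Cenpf (-0.45) and Prc1, of the central spindle (-0.41), fell as well. Kif18b, a kinesin of astral microtubules, rose by 1.07, Zwint, of the outer kinetochore, by 0.95, Psrc1 by 0.89 and the checkpoint gene Mad2l1 by 0.60 (under median ratio scaling 0.16 and not called).

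**Figure D4:**
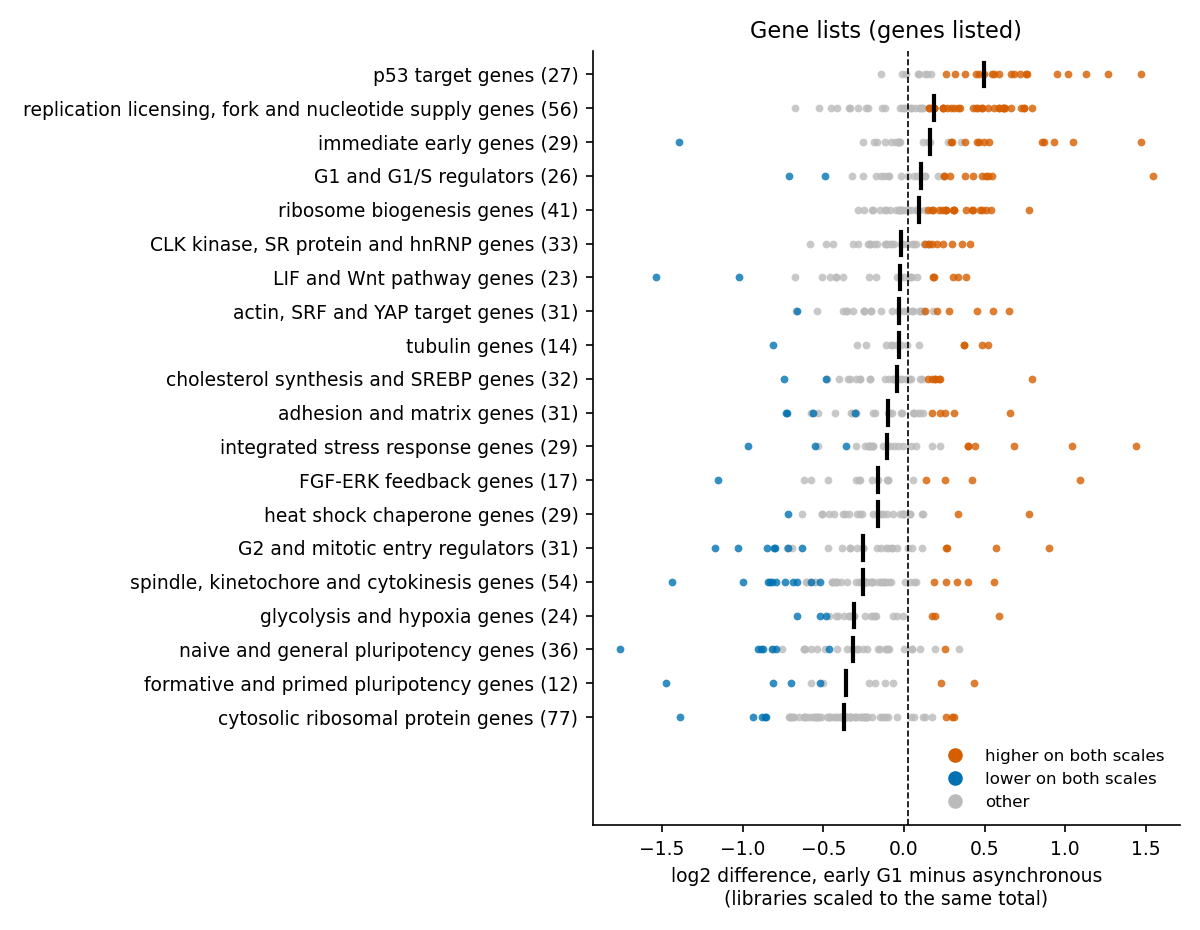
Log2 difference with the same total (early G1 minus asynchronous) for each listed member of the 20 gene lists with 10 or more listed members (the histone and 2-cell lists have fewer), the number of members in brackets, ordered by the list median (black bar), with the median of all genes dashed (0.02). Among these the p53 target list has the highest median (0.49) and the cytosolic ribosomal protein list the lowest (-0.37).

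The words in the printed windows were counted over the 250 bases before the start of 7949 listed genes with a RefSeq window. An E2F-like word was present in 304 of them (3.82%) and in 9 of 46 windows (19.6%) of the replication list. Of the replication genes that rose, 6 of 27 with a window (22.2%) held it, close to the share in their whole list. The G2 and mitotic entry list, to which Cdc25a belongs, held it in 2 of 23 windows (8.70%). The CHR word was present in 788 of all windows (9.91%), in 8 of 23 (34.8%) of the G2 and mitotic entry list and in 15 of 46 (32.6%) of the spindle list. CCAAT was present in 3013 of all windows (37.9%), in 18 of 23 (78.3%), in 31 of 46 (67.4%) and in 26 of 46 (56.5%) of the replication list. Of the G2 and mitotic entry genes that fell, 4 of 6 with a window held both CHR and CCAAT (8 of 23 in the whole list and 4.03% of all windows), and none of the 4 that rose held the CHR word. In the spindle list no such split was seen, with both words in 2 of 8 windows of fallen and 1 of 5 windows of risen genes. Among all genes that rose or fell, the CHR word was held by 8.28% and 11.3% of windows and the E2F-like word by 4.16% and 4.33%. Plk1 holds no CHR word of exactly these letters in its printed window, which says nothing on the factor. The matches are a description of letters, not of binding.

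Pluripotency genes were spread about or under the median of all genes. Of 36 listed naive and general pluripotency genes, 1 rose and 7 fell (median 0.14, same total -0.32), while 23 were lower with the same total (29.9% of all genes). The deposited list median minus that of all genes was -0.24, but -0.08 without replicate 1 and -0.42 without replicate 2. Nanog read 6.73, 5.58 and 9.01 TPM in asynchronous cells and 4.97, 7.08, 3.49 and 6.32 TPM in early G1. Its groups overlapped, 1 of the 4 pairs was higher, and the deposited difference of -0.30 (adjusted p = 0.04) was no longer called without asynchronous replicate 1 or 3 (-0.23 and -0.24), 90 min replicate 1 or 3 (-0.29 and -0.32) or 120 min replicate 1 (-0.12). Besides Nanog and Tdgf1 the fallen members were Trh (-0.60), Zfp57, which protects imprints (-0.37), L1td1 (-0.36), Prdm14 (-0.32) and Gdf3, a ligand of the TGF-beta family (-0.32). Calls were lost for L1td1 without asynchronous replicate 3 (-0.23), for Gdf3 without that library (-0.26), asynchronous replicate 1 (-0.29) or 120 min replicate 1 (-0.21), for Trh without replicate 1 (-0.26) and for Zfp57 without replicate 1 or 3 (-0.31 and -0.26). Fgf4, the autocrine growth factor of ES cells, rose by 0.57. Pou5f1 (Oct4) read 12.8, 8.25 and 15.1 TPM and then 14.6, 18.5, 12.6 and 10.9 TPM, with overlap. Its direction turned with the scale, from 0.19 to -0.35, and that of Esrrb from 0.36 to -0.11. Pou5f1 was called higher without 120 min replicate 1 (0.32), and Esrrb was no longer called without 120 min replicate 2 (0.30) or asynchronous replicates 1 and 2 in turn (0.29 and 0.26). Klf4 was higher on the deposited scale only (0.53, without replicate 2 not called at 0.29, same total 0.10).

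Of 12 listed formative and primed genes, 2 rose and 4 fell. Lefty1 and Lefty2, both inhibitors of Nodal, fell (-1.21 and -0.58), while the ligand Nodal rose by 0.76 without overlap, from 7.45, 6.36 and 7.50 TPM to 12.8, 13.7, 12.9 and 12.0 TPM. With the same total Nodal was 0.23 higher (adjusted p = 0.045) and under median ratio scaling 0.20, which was not called. Zic2, a zinc finger factor of the primed state, rose by 0.86. In Car4, which fell (-0.67), the replicate 2 libraries stood apart at 3.43 TPM in asynchronous cells and 0.751 TPM at 120 min, against at most 0.465 TPM in all others. The genes of the Zscan4 cluster, marks of a rare state resembling the 2-cell embryo, showed the same excess in replicate 2. Zscan4f, which fell (-0.50), read 3.50 and 1.94 TPM there and 0.252 to 1.28 TPM in the others. Zscan4 copies are near-identical and their reads may be split between them.

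Immediate early genes, which respond to growth factors within minutes, were higher on the deposited scale in 24 of 29 (70.3% of all genes). On both scales 12 rose and 1 fell (33.2% and 7.97% of all genes; median 0.48, same total 0.16). Egr1 was the gene that fell, from 4.99, 4.86 and 2.44 TPM to 1.23, 1.48, 1.36 and 2.00 TPM (log2 difference -1.02 ± 0.16, no overlap). Fosl1, a partner in AP-1, rose by 1.39 from 0.174, 0.415 and 0.320 TPM to 1.84, 2.73, 2.61 and 2.41 TPM, and was listed through its level after mitosis. Gadd45b and Arc rose by 1.32 and 1.24. Myc was higher on the deposited scale only (0.60, same total 0.15). Of 17 FGF-ERK feedback genes 4 rose and 1 fell. Spry4, an inhibitor of the pathway, fell (-0.64), whereas Spred3, of a related inhibitor family, rose by 1.51. In the LIF and Wnt list 5 of 23 rose and 2 fell, with Ctnnb1 (beta-catenin) up by 0.92 and, beside Notum, the LIF target Bcl3 down (-0.68).

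Genes of ribosome production were counted in 2 lists. Of 41 listed ribosome biogenesis genes, 40 were higher on the deposited scale (70.3% of all genes) and 19 rose on both (33.2%; median 0.61, same total 0.09), among them Polr1e, a subunit of RNA polymerase I (1.19), and Bop1, of large subunit maturation (1.04). Of 77 cytosolic ribosomal protein genes, 3 rose and 5 fell (33.2% and 7.97% of all genes), and 58 were lower with the same total (29.9% of all genes; median 0.14 and -0.37). Rpl24 read 4.79, 5.87 and 6.19 TPM in asynchronous cells and 1.95, 2.60, 2.42 and 2.63 TPM in early G1, a fall without overlap (log2 difference -0.97), whereas Rps28 rose by 0.83. In the list of CLK kinase, SR protein and hnRNP genes, which act in splicing, 8 of 33 rose and none fell (median 0.54, same total -0.02). In the integrated stress response list, 6 of 29 rose and 3 fell, against 33.2% and 7.97% of all genes. Its largest rises were those of Ddit4, an inhibitor of mTOR signalling (1.92), and Ddit3 (Chop, 1.53). Ddit4 read 1.19, 1.34 and 0.959 TPM and then 7.43, 6.75, 7.96 and 7.51 TPM, without overlap.

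The 4 listed replication-dependent histone genes did not move as one. Hist1h2bq, at 319, 268 and 287 TPM in asynchronous cells, stood at 159 and 127 TPM at 90 min and 127 and 109 TPM at 120 min, and fell without overlap (-1.22 ± 0.15). Hist1h2bc also fell (-0.91) whereas Hist1h2bp rose by 1.39. Histone genes of 1 class are near-identical in sequence, so that reads may be shared between them. The paper plotted mRNA for histones and pre-mRNA for its other example genes. How far the values here are those of pre-mRNA was not tested.

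Long genes stood lower than short ones. The median log2 difference was 0.48 for the 2480 genes under 10 kb, 0.41 for 3448 of 10 to 30 kb, 0.34 for 2914 of 30 to 100 kb, 0.22 for 744 of 100 to 200 kb and -0.04 for the 314 over 200 kb. With the same total, the medians ran from 0.13 in the shortest to -0.32 in the longest class. On the deposited scale 4.31% of genes under 10 kb were called lower, against 41.1% of those over 200 kb. In every pair of libraries the longest class had the lowest median, at 0.00 and -0.19 at 90 min (replicates 1 and 3) and 0.06 and 0.01 at 120 min (replicates 1 and 2). Spearman's rho between length and difference across genes was -0.245 (-0.268 with the same total), as a description over genes that share their libraries. Median levels did not run in the order of length, at 1.89, 2.22, 2.15, 1.55 and 1.06 TPM from the shortest to the longest class, and their part was not tested.

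The 10 longest genes show the spread inside that class, from 738 to 1504 kb. Tenm4, a teneurin of 740 kb, read 2.64, 1.68 and 4.27 TPM in asynchronous cells and 0.901, 1.42, 0.881 and 0.907 TPM in early G1, and fell without overlap (-0.86). Immp2l, a mitochondrial peptidase gene of 931 kb, fell (-0.60) from 0.580, 0.576 and 1.05 TPM to 0.108, 0.164, 0.110 and 0.125 TPM. Wwox (-0.55), Etl4 (-0.46) and Zbtb20 (-0.31) fell without overlap, and Pde4d (-0.18) fell with overlap. The Pde4d call was lost without asynchronous replicate 3 (-0.11), 90 min replicate 3 (-0.17) or 120 min replicate 2 (-0.15). Zfhx3 was higher on the deposited scale only (0.25, same total 0.05), and Robo1 was called on the same total only (-0.01 deposited, same total -0.22). Anks1b, at 1100 kb, rose by 0.39 and Camta1 by 0.29. Both of these are in the table only through their level after mitosis, and no long gene among the 10 with an asynchronous mean above 0.5 TPM rose.

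The 90 and 120 min libraries were then compared separately. Both share the asynchronous libraries. At 90 min 6656 genes (67.2%) were higher and 766 (7.73%) lower than in asynchronous cells, and at 120 min 6280 (63.4%) and 581 (5.86%). With the same total these were 3007 (30.3%) and 2737 (27.6%) at 90 min and 2653 (26.8%) and 2472 (24.9%) at 120 min. The comparison of 120 with 90 min itself called 1 gene higher (0.0101%) and 0 lower by limma, with 604 genes at an unadjusted p under 0.05. With the same total 2 genes (0.0202%) were higher and 0 lower, with 1043 at an unadjusted p under 0.05. The gene called on both scales was Mirg, a non-coding RNA and microRNA host at the far end of the imprinted Dlk1-Dio3 region (chr12:109729764-109749460, plus strand). It read 5.69, 7.44 and 7.93 TPM in asynchronous cells, 1.44 and 0.683 TPM at 90 min and 5.03 and 6.69 TPM at 120 min. Among these 7 libraries those at 90 min thus stood below all others and 120 min overlapped asynchronous cells, with a log2 difference of 1.62 between the time points.

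Mirg lies on the same strand as Meg3 and Rian, and its start is 189 kb from that of Meg3 (chr12:109541001-109571726), with the start of Rian at 62.9 kb. Meg3 itself read 14.2, 20.0 and 24.0 TPM in asynchronous cells, 16.8 and 21.3 TPM at 60 min, 14.9 and 25.9 TPM at 90 min and 12.7 and 18.5 TPM at 120 min, all overlapping. In mitotic cells it read 11.8, 17.5 and 15.0 TPM, in each replicate under the asynchronous library of that replicate. Rian read 8.12, 8.75 and 10.7 TPM in asynchronous cells. In mitotic cells it read 4.39, 6.08 and 5.62 TPM (replicates 1, 2 and 3), under all asynchronous libraries. It stood at 3.39 and 4.17 TPM at 60 min, at 8.51 and 9.24 TPM at 90 min and at 8.70 and 10.9 TPM at 120 min. Mirg was at 0.533 and 0.742 TPM at 60 min. At 90 min Rian was thus within the range of the asynchronous libraries and Mirg under it, and at 120 min Mirg lay within it in replicate 2 and just under it in replicate 1.

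**Figure D5:**
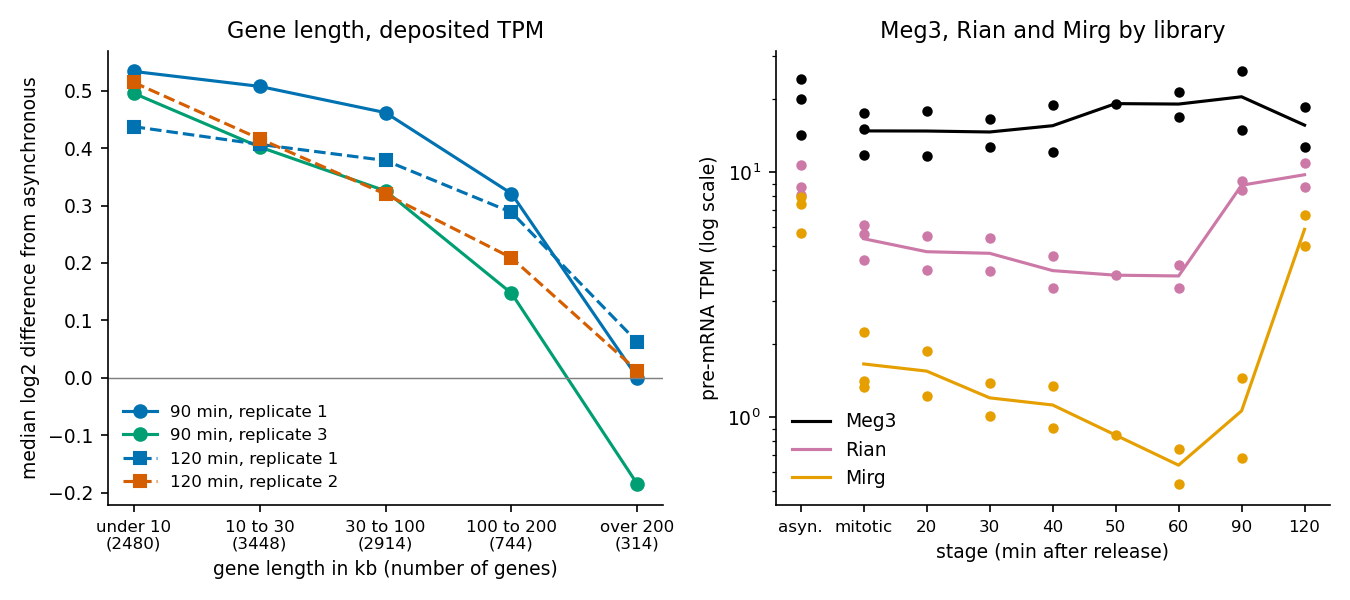
Left, median log2 difference from asynchronous cells by gene length class (number of genes in brackets) for the 4 early G1 libraries on the deposited values, lowest in genes over 200 kb in each. Right, pre-mRNA TPM (log axis) of Meg3, Rian and Mirg in every CCNA-GFP library by stage, lines joining stage means after release. Rian climbs between 60 and 90 min. Mirg rises from 0.533 to 1.44 TPM over that interval in replicate 1, and to 5.03 TPM at 120 min.

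The same stages were measured in another line, CTCF-AID ES cells, in which CTCF carries a degron, here without the auxin IAA that would deplete it. No library is shared, and the tables were normalised separately, so no test runs across them. The asynchronous columns of that table carry damaged names. They were read as asynchronous because that is the stage the other columns leave over and because the paper's supplementary data name them Asy. Each asynchronous value and each difference from asynchronous cells in this line below rests on that reading. There, 6093 of 10237 genes (59.5%) were higher and 814 (7.95%) lower on the deposited scale, with a median of 0.26. With the same total the counts were 3076 (30.0%) and 2869 (28.0%), and 3076 (30.0%) and 814 (7.95%) were called on both scales. Of the 3291 genes that rose in CCNA-GFP cells 3237 were listed there, and 2291 of them (70.8%) rose, against 30.3% of the 9574 genes listed in both tables. These are 78.9% of the 2903 genes listed in both tables that rose there. Of the 790 that fell, 665 were listed and 500 (75.2%) fell, against 7.85%, and these are 66.5% of the 752 genes listed in both that fell there.

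Efnb3 was among the genes that rose in both lines. In CTCF-AID cells it read 1.62, 0.956 and 2.87 TPM in asynchronous cells (replicates 1, 2 and 3), 9.53 and 23.0 TPM at 90 min (replicates 1 and 3) and 12.0 and 14.9 TPM at 120 min (replicates 1 and 2), a rise of 2.51. Rbm38 rose by 2.53, Dffb by 2.64, Ccng1 by 2.55, Btg2 by 2.12 and Cdkn1c by 2.04. The Mir34a hairpin rose there on both scales, from 5.04, 5.26 and 5.04 TPM to 20.3, 29.2, 26.0 and 29.8 TPM. Of the p53 list 22 of 27 rose, and of the replication list 37 of 56 (30.0% of all genes there). The number of fallen members was higher there than in CCNA-GFP cells in 12 of 22 lists, lower in 3 and the same in 7 (7.95% of all genes fell there), and the differences were not tested. In the cholesterol list 3 rose and 11 fell (7 and 2 in CCNA-GFP cells), in the glycolysis and hypoxia list 1 and 11 (3 and 3), in the ribosomal protein list 2 and 17 (3 and 5), in the pluripotency list 2 and 13 (1 and 7) and in the integrated stress response list 4 and 8 (6 and 3). In the 2-cell list 0 and 2 (0 and 6), in the spindle list 5 and 10 (5 and 11) and in the adhesion and matrix list 6 and 3 (5 and 4) rose and fell, but that line lists only 5 of the 8 genes of the 2-cell list and 28 of the 31 of the adhesion and matrix list. Plk1 fell there (-0.84), as did Cenpa (-1.09), Tdgf1 (-1.16), Lefty1 (-1.81) and Egr1 (-2.17). Gtf3c2 did not, with a deposited difference of -0.22 (adjusted p = 0.3). Genes over 200 kb had a median of -0.03 and those under 10 kb of 0.36. Mirg stood at 0.855 and 1.02 TPM at 60 min, 2.04 and 2.55 TPM at 90 min and 4.18 and 6.29 TPM at 120 min. In asynchronous cells it read 5.75, 6.78 and 5.77 TPM. Rian read 6.92, 9.08 and 7.89 TPM in mitotic cells there, 5.15 and 9.92 TPM at 90 min and 5.18 and 8.02 TPM at 120 min, against 7.81, 8.86 and 9.62 TPM in asynchronous cells. In that line Rian was thus within the asynchronous range in mitotic cells of replicates 2 and 3 and under it at 90 and 120 min in replicate 1.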

How the data were processed

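Ribo-depleted, stranded RNA-seq reads were aligned by the authors to mm10 with STAR and quantified with RSEM on Gencode vM12 plus a pre-mRNA isoform per gene. The deposited values are TPM of that isoform for genes above 0.5 TPM in asynchronous cells or in several post-mitotic libraries. A gene could thus be listed through its early G1 level. Of 1218 genes with an asynchronous mean at or under 0.5 TPM, 662 (54.4%) rose and 3 fell, and of the 8693 others 2629 (30.2%) rose and 787 (9.05%) fell. TPM keep no read depth, so no counting interval is given. No count test was possible.

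log2(TPM + 1) of all 19 CCNA-GFP libraries was fitted with limma 3.58.1 (R 4.3.3; stage plus replicate block, trended eBayes, two-sided, Benjamini-Hochberg over 9911 genes, threshold 0.05), because 7 libraries alone leave 2 residual degrees of freedom. The fit was repeated with all libraries at 25065 TPM in total. The replicate was a block because the study computed its changes within replicates. Deviations from the stage means correlated between same-numbered libraries (r = 0.13, 0.28, 0.40, 0.55 and 0.15 over genes). Libraries of different replicates were not compared in this way. The fit was tested on simulated data with known changes in some genes, but with no shift common to all genes between stages. Sums were compared in Python 3.11.15 (scipy 1.17.1) by an exact permutation test.

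Named are the 10 largest differences each way among genes called on both scales with a mean of at least 1 TPM and all 4 pairs in that direction (2635 and 339 qualified), the 4 largest in each list, and 12 genes of interest. Members, lists and comparisons were chosen with earlier results of these data known, and any other gene in the text was picked with its values in view. Gencode vM21 (GRCm38) gave positions for 9900 of 9911 symbols, and promoter windows came from RefSeq (GRCm38.p6; 7949 matched). Some named genes are not reported here. Alternatives are given in the closing section.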

Additional observations from a re-analysis of the deposited data

Results flagged for a closer look

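Mirg was the only gene, on both scales, whose level at 120 min differed from that at 90 min by the test of that difference (log2 difference 1.62, limma, adjusted over 9911 genes). Both 90 min libraries were under both 120 min libraries, and the 2 time points share replicate 1 alone. The difference was called under every alternative run that kept both libraries of each time point. Where 1 of these was left out, a time point held a single library and other stages gave the spread. Those fits therefore add no support. The cause of the difference was not tested. In CTCF-AID cells without IAA, whose libraries are separate, the 90 min libraries read 2.04 and 2.55 TPM and the 120 min libraries 4.18 and 6.29 TPM.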

How the results depend on the processing

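The block and the pairing: without the replicate block the early G1 calls were 491 lower, those at 90 min 361 lower, those at 120 min 3533 higher and 354 lower, and those in CTCF-AID cells without IAA 4030 higher and 403 lower. Fewer genes were also higher in early G1 than the 6966 found with the block. Leaving out the block ended the call of 14 of the 130 named genes and turned none.

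With the same total, 3291 genes were higher and 2961 lower in early G1, 3007 and 2737 at 90 min, 2653 and 2472 at 120 min, 2 higher at 120 against 90 min, and 3076 and 2869 in CTCF-AID cells. Median ratio scaling was planned for the same-total early G1 counts and added after seeing the data for the other results. It gave 3102 and 3093 in early G1, 2834 and 2849 at 90 min, 2503 and 2576 at 120 min, and 2 higher at 120 against 90 min. These scalings turned 5 of 130 named genes: Ccne1 (-0.25 and -0.27), Ccnd1 (-0.10 and -0.11), Pou5f1 (-0.35 and -0.37), Esrrb (-0.11 and -0.13) and Rian (-0.46 and -0.47). Divided by their step factors, libraries gave 2704 higher and 879 lower at 120 min and 7 lower at 120 against 90 min. In early G1 that division left fewer genes higher than the 6966 of the deposited values, and more lower than the 792. Counts that an alternative moved by a smaller factor are not all printed here. Among genes averaging 1 TPM or more, where fewer were tested, 388, 386 and 292 were lower in early G1, at 90 and at 120 min, and 2 higher and 1 lower at 120 against 90 min. In the 7 libraries only, 2 were higher and 4 lower at 120 against 90 min. The median of genes over 200 kb minus that of genes under 10 kb (-0.52) was -0.28 after division by step factors and -0.84 with a pseudocount of 0.1.

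Leaving out libraries or replicates gave 6068 to 7151 higher and 525 to 874 lower genes in early G1 (same total 2012 to 3205 and 1833 to 2875), 5267 to 6840 and 405 to 845 at 90 min, 4206 to 6592 and 258 to 631 at 120 min, 1 to 21 and 0 to 95 at 120 against 90 min, and 4564 to 5689 and 402 to 827 in CTCF-AID cells (chosen after seeing the data). In early G1 the lowest counts came without replicate 1 or 3, which leaves fewer samples. The 21 and 95 came without replicate 2, and 90 min replicate 1 alone moved the lower count to 16. The length difference ran from -0.59 to -0.49 and the difference in summed TPM from 11097 to 12186. Without the trend all 130 named genes kept their call. Depth is unknown, so low genes may vary by counting alone, and cell state, drug history and replating cannot be told apart. The unnamed library factor bears on every deposited difference. The causes were not tested.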

Other observations

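The lists of metabolism and chaperones were counted in the same way. Of 32 listed cholesterol synthesis and SREBP genes 7 rose and 2 fell (33.2% and 7.97% of all genes; median log2 difference 0.31, same total -0.04). Scap, which escorts SREBP to its activation, rose by 1.21 from 0.899, 0.829 and 1.40 TPM in asynchronous cells to 3.68, 4.62, 3.60 and 3.16 TPM in early G1, with no overlap. In the glycolysis and hypoxia list 3 of 24 rose and 3 fell (median 0.10, same total -0.31), with Eno2, an enolase listed through its level after mitosis, up by 0.88. Of 29 heat shock chaperone genes 2 rose, Dnajb1 by 1.22 and the factor Hsf1 by 0.80, and 1 fell (median 0.34, same total -0.16).

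The cytoskeleton and adhesion lists were mixed. Of 31 actin, SRF and YAP target genes 6 rose and 1 fell (median 0.35, same total -0.03). Srf, the serum response factor, read 1.16, 2.95 and 2.03 TPM and then 5.55, 5.36, 4.29 and 5.91 TPM, a rise of 1.11 without overlap. Of 31 adhesion and matrix genes 5 rose and 4 fell (median 0.13, same total -0.10). Cdh1, the E-cadherin gene, rose by 0.81, whereas Lama1, a laminin chain, and Ptk2, the focal adhesion kinase, fell (-0.51 and -0.39). Of 14 tubulin genes 4 rose, with Tubg1, of the microtubule nucleating ring, up by 0.91, and Tuba1c fell (-0.40; median 0.43, same total -0.03).

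In the list of genes of the rare state resembling the 2-cell embryo 6 of 8 fell and none rose (median -0.29, same total -0.48), all with the higher replicate 2 levels described for Zscan4f. Cd68, a lysosomal membrane protein gene, read 1.83, 1.29 and 2.73 TPM in asynchronous cells, 24.4 and 21.0 TPM at 60 min, 7.07 and 12.8 TPM at 90 min and 4.22 and 4.94 TPM at 120 min. It rose by 1.43, and the early G1 libraries stood between those at 60 min and the asynchronous ones. The orphan receptor genes Nr0b1 and Nr5a2, both of the pluripotency network, were higher on the deposited scale (0.71 and 0.67) and not with the same total (0.34, adjusted p = 0.084, and 0.20, adjusted p = 0.21).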
